A study of Oryza sativa with 21 samples.

Results

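C-14 is 1 of 3 rice lines in which the gene NRP1 was edited with CRISPR/Cas9, and it is described here through the 3 C-14 and 3 wild type (WT) libraries among the 21 RNA-seq libraries of the study. All 21044 gene identifiers that passed a filter on low counts were compared, out of 91080 in the deposited count table. The tissue was the leaf below the top leaf, taken in the field in the morning at heading, when the panicle emerges. The other lines were the CRISPR lines C-13 and C-16, OE-2, OE-3 and OE-4, which overexpress NRP1 (OE lines), and unedited WT, with 3 libraries each. The title of the study calls NRP1 a negative regulator of photosynthesis, and the comparison asks how leaf transcripts of an edited line differ from WT. C-14 is a single line, so the effect of the NRP1 edit and of anything else that sets this line apart from WT cannot be told apart in C-14 against WT alone. C-14 was therefore also compared directly with C-13 and C-16, which are edited at the same gene. The labels give neither the edited sequence of any line nor separate plants for the replicates, so the p-values reflect spread among these samples, which may be technical.

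In a leaf, light-harvesting antenna proteins pass absorbed energy to photosystems II and I, and electron carriers link the photosystems. The ATP and reducing power made in this way drive carbon fixation in the Calvin-Benson cycle, whose products are exported as sucrose or kept as starch. Nuclear genes for these proteins are among the most abundant transcripts of a green leaf. Phenylalanine ammonia-lyase (PAL) enzymes take phenylalanine into the phenylpropanoid pathway, the source of lignin and of many defence compounds. Lipoxygenases of the chloroplast supply the precursor of the hormone jasmonate.

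Total counts per library ran from 15662133 to 17378964 in C-14, against 13879204 to 18250090 in WT. The median SD of log2 counts per 1000000 counts of a library (CPM) over 16305 genes was 0.174 in C-14 and 0.191 in WT. The light-harvesting antenna list summed to 43901, 46371 and 48150 CPM in C-14 and to 32287, 42226 and 29452 CPM in WT, so leaf transcripts were abundant in every library of both groups. Of markers for other cells or organs, the 2 panicle and seed genes of 4 that passed the filter summed to 24.6 to 29.3 CPM in C-14. In WT they summed to 20.4 to 22.4 CPM, below every C-14 library, and neither gene was called. The guard cell gene SLAC1 had 37.1 to 49.9 CPM in C-14 and 30.2 to 33.4 CPM in WT. PCNA, the only 1 of 3 markers of dividing cells to pass the filter, had 9.74 to 10.3 CPM in C-14 and 7.91 to 10.1 CPM in WT. The 2 secondary wall genes tested of 4, CESA4 and CAD2, summed to 8.25 to 33.4 CPM in C-14 and 26.9 to 92.5 CPM in WT. CAD2 held most of this sum, and the 2 genes went opposite ways. The log2 fold change in C-14 against WT was -1.78 for CAD2 and 1.17 for CESA4, so the sum does not speak for both. Fewer cells of a type and less RNA per cell cannot be told apart in bulk leaf RNA, and the part of these markers in the results was not tested.

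NRP1 (OS07G0471900) had 2.27, 2.27 and 2.01 CPM in the C-14 libraries and 2.45, 1.93 and 3.0 CPM in the WT libraries. The groups overlapped, and the log2 fold change was -0.16 (edgeR adjusted p = 0.68, SE 0.19). The mean of 2.18 ± 0.15 CPM in C-14 compares with 3.13 ± 0.75 CPM in C-13 and 3.3 ± 0.25 CPM in C-16 (SD, n = 3 libraries each). C-14 against the mean of C-13 and C-16 gave a log2 fold change of -0.56 (95% interval -0.89 to -0.23, edgeR adjusted p = 0.289). A CRISPR edit can disrupt a protein without lowering its transcript, so these levels neither bear out nor contradict the label of the line. The locus of NRP1 was taken from general knowledge, and its mean log2 fold change over the OE lines, 7.08, ranked 8 among all genes tested.

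Against WT, 666 of 21044 genes were called at an edgeR adjusted p under 0.05, or 3.16%. C-14 was higher for 378 of them (1.8% of genes tested) and lower for 288 (1.37%). Most changes were moderate, with a median absolute log2 fold change of 1.15 among called genes and 369 of them over 1. Very large changes were mainly increases, since 47 genes had a log2 fold change over 4 and 12 had one under -4. The C-14 and WT libraries did not overlap for 640 of the 666 genes, beside 20.9% of all genes tested. The calls rest on these same libraries, so this is largely built in and is no separate support for them. The median log2 fold change of all genes was 0.01. The count of calls leaned on single libraries, with 221 calls without WT replicate 1, 211 without C-14 replicate 1 and 1024 without OE-3 replicate 1, a library of neither group compared. With the C-14 and WT libraries alone in the fit, 137 genes were called, 100 higher and 37 lower in C-14.

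Genes of the photosynthetic apparatus lay mostly higher in C-14 than in WT, by modest factors. Over the lists of light-harvesting antenna, photosystem subunits, electron carriers with ATP synthase, and the Calvin-Benson cycle, 7 of 56 tested genes rose and none fell, beside 1.8% and 1.37% of all genes. The median log2 fold change of the 56 genes was 0.40, with 50 above 0, and the median of all genes was 0.01. Their summed level was 194223, 190746 and 207797 CPM in C-14 and 152553, 182292 and 141054 CPM in WT, and the groups did not overlap. Pooling these 4 lists was decided after their values were seen.

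Among the antenna genes, 3 of 14 rose. Lhcb4 (OS07G0558400), a minor antenna protein of photosystem II, had 3170, 3440 and 4260 CPM in C-14 and 1970, 2440 and 1610 CPM in WT. Every C-14 library lay above every WT library, with a log2 fold change of 0.85 (edgeR adjusted p = 0.0137, SE 0.18). Lhca1 (OS06G0320500), an antenna protein of photosystem I, had 2510, 2780 and 3240 CPM in C-14 and 1800, 2270 and 1450 CPM in WT (log2 fold change 0.62). Lhcb1.2 (OS01G0720500), of the major antenna of photosystem II, varied most, with 70.5, 45.2 and 182 CPM in C-14 and 38.6, 31.6 and 16.6 CPM in WT. Its log2 fold change of 1.77 (edgeR adjusted p = 0.037, SE 0.45) therefore leans on C-14 replicate 3, and without that library it was 1.00 and was not called.

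Of the photosystem subunits, 2 of 18 rose, with a list median of 0.48 on the log2 fold change scale. PsbQ (OS07G0544800), an extrinsic protein of the oxygen-evolving complex, had 1590, 1600 and 1900 CPM in C-14 and 933, 1120 and 946 CPM in WT (log2 fold change 0.76, edgeR adjusted p = 0.0173, SE 0.17). PsaE (OS07G0435300), a stromal subunit of photosystem I, averaged 657.6 ± 45.9 CPM in C-14 and 470.2 ± 47.7 CPM in WT (SD, n = 3 each). PetC (OS07G0556200) is the Rieske iron-sulphur protein of the cytochrome b6f complex, which lies between the photosystems in electron transport. Its level was 2540, 2410 and 2500 CPM in C-14 and 1720, 1950 and 1660 CPM in WT. It was the only 1 of 7 genes called in its list, with a log2 fold change of 0.49 (edgeR adjusted p = 0.0261, SE 0.12). In the Calvin-Benson cycle, 1 of 17 genes rose, GAPB (OS03G0129300), a subunit of the chloroplast glyceraldehyde-3-phosphate dehydrogenase. Its level was 6080, 4990 and 5810 CPM in C-14 and 4070, 4600 and 3370 CPM in WT (log2 fold change 0.49).

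These 7 calls were sensitive to the libraries in the fit. None of the 7 was called without WT replicate 1, where edgeR adjusted p ran from 0.0615 for Lhcb4 to 0.122 for PsaE, and Lhcb4 and PsbQ were the only 2 called without C-14 replicate 1. The median of the 56 genes stayed between 0.32 and 0.49 when any 1 library was left out.

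**Figure D1:**
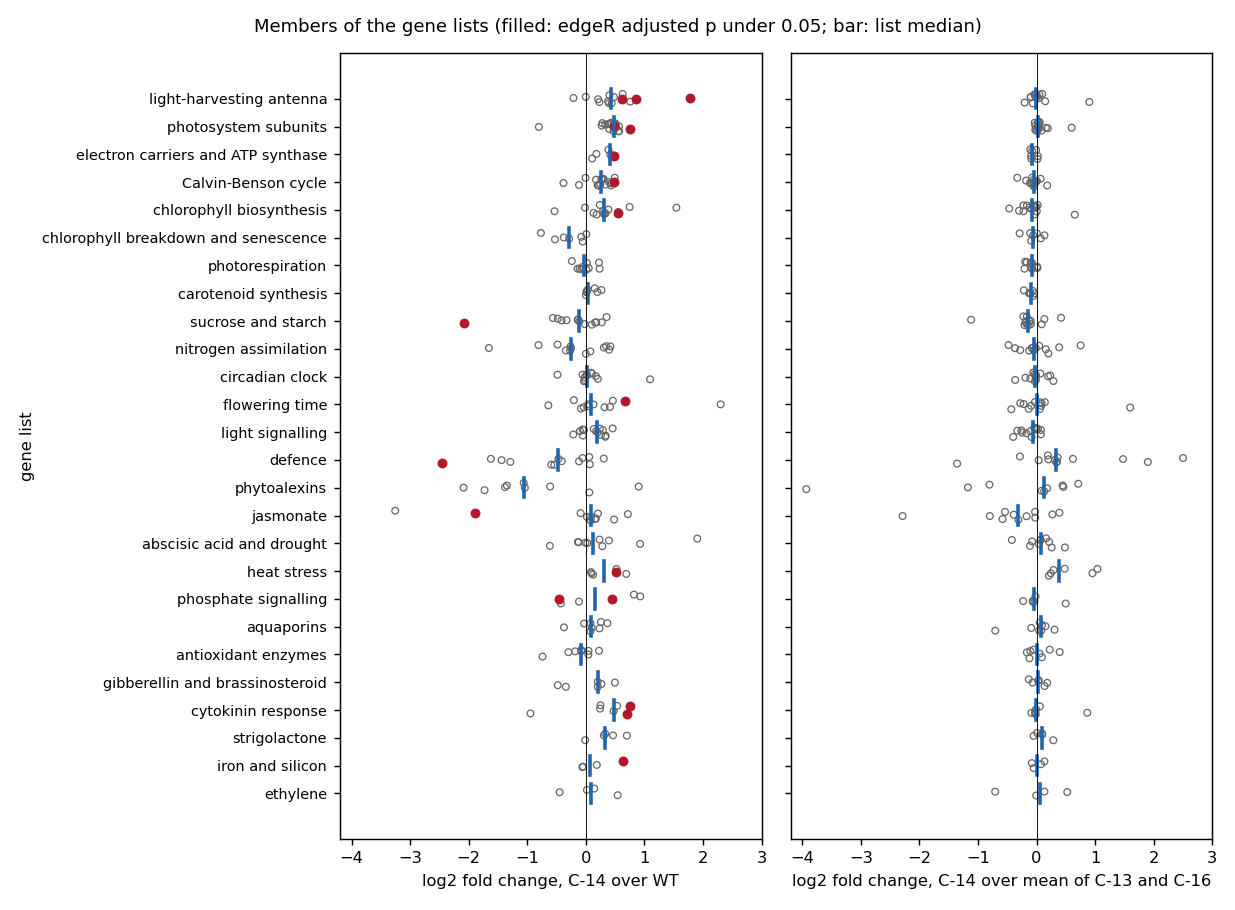
Log2 fold change of each tested member of 26 gene lists in C-14 over WT (left panel) and in C-14 over the mean of C-13 and C-16 (right panel). Each point is a gene, filled red where edgeR adjusted p was under 0.05, and the blue bar is the list median. The photosynthesis lists at the top lie right of 0 against WT and at 0 against the other CRISPR lines, and no point is filled in the right panel.

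In chlorophyll synthesis 1 of 14 genes was called. The list median was 0.31 on the log2 fold change scale, and ran from 0.14 to 0.52 when 1 library was left out. The called gene, DVR (OS03G0351200), a divinyl reductase of the chlorophyll pathway, had 114, 84.4 and 99.4 CPM in C-14 and 70.1, 78.0 and 55.1 CPM in WT (log2 fold change 0.55, edgeR adjusted p = 0.0319). DVR was also called higher than WT in C-13, C-16 and OE-3 (log2 fold changes 0.55, 0.60 and 0.42), but not in OE-2 (0.06) or OE-4 (-0.05). Of 7 genes of chlorophyll breakdown and senescence none was called, and the median was -0.29, with a range of -0.33 to -0.06 when 1 library was left out. None of 10 photorespiration genes was called (median -0.02). At an unadjusted p under 0.05, 99 of the 262 list members tested passed against WT, beside 4273 of all 21044 genes (20.3%). DESeq2 called 38 members, beside 1229 of all genes (5.84%), and edgeR called 19.

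Regulatory genes that rose included the cytokinin-induced type-A response regulators RR1 (OS04G0442300) and RR4 (OS01G0952500). They were 2 of 7 tested genes in their list, beside 1.8% of all genes tested that rose. RR1 had 10.5, 10.6 and 11.6 CPM in C-14 and 6.66, 7.74 and 5.65 CPM in WT. The log2 fold change was 0.70 (edgeR adjusted p = 0.0101, SE 0.14), and the call held with any 1 library left out. It was not made with the C-14 and WT libraries alone (edgeR adjusted p = 0.11) or with a minimum absolute log2 fold change of 1. RR4 had 80.9, 46.7 and 70.7 CPM in C-14 and 43.4, 40.4 and 34.1 CPM in WT (log2 fold change 0.75). COL4 (OS02G0610500), a CONSTANS-like repressor of flowering in rice, was the only 1 of 12 flowering genes called, at 108, 107 and 79.4 CPM in C-14 and 54.0, 68.9 and 63.1 CPM in WT. HSFA2d (OS03G0161900), a heat shock transcription factor, had 480, 471 and 429 CPM in C-14 and 263, 301 and 405 CPM in WT (log2 fold change 0.51). It was the only 1 of 6 tested heat stress genes called.

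Among nutrient genes, the sulfolipid synthase gene SQD2 (OS07G0100300) rose by a log2 fold change of 0.44 and PHO2 (OS05G0557700), a ubiquitin-conjugating enzyme of phosphate signalling, fell by 0.45. Of 6 tested genes in the phosphate signalling list, 1 rose and 1 fell. PHO2 was tightly grouped, at 100, 96.0 and 91.2 CPM in C-14 and 127, 132 and 135 CPM in WT. The silicon transporter gene LSI1 (OS02G0745100), known from roots, had 29.5, 30.2 and 32.0 CPM in C-14 and 17.8, 18.7 and 22.4 CPM in WT. LSI1 also lay above WT in every other line, OE lines included. Its log2 fold changes there ran from 0.35 in OE-4 to 0.57 in C-16, and were called in C-16 and OE-3. In C-14 against WT it was the only 1 of 4 tested iron and silicon genes called. DVR, RR4, COL4, HSFA2d, SQD2, PHO2 and LSI1 were each not called without WT replicate 1 (edgeR adjusted p from 0.0845 to 0.161) nor without C-14 replicate 1 (0.0586 to 0.223).

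The largest decrease among list members that kept its call in every alternative was in starch synthesis. AGPL1 (OS05G0580000), a large subunit of the ADP-glucose pyrophosphorylase that makes the glucose donor for starch, had 51.4, 29.5 and 38.4 CPM in C-14 and 128, 159 and 219 CPM in WT. The groups were far apart, with a log2 fold change of -2.08 (edgeR adjusted p = 0.00125, SE 0.33). It was the only 1 of 14 sucrose and starch genes called, and the list median was -0.12. LOX8 (OS08G0508800), a lipoxygenase of the jasmonate list, had 6.21, 5.65 and 9.72 CPM in C-14 and 36.9, 21.7 and 21.5 CPM in WT. It fell by 1.89 on the log2 scale (edgeR adjusted p = 0.00199, SE 0.32), while the other 10 jasmonate genes tested were not called.

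Most PAL genes were lower in C-14, in a list added after the data were seen, with a median log2 fold change of -1.92. Of its 6 tested genes 4 were called lower, beside 1.37% of all genes tested. The list was chosen after its values were seen, so this count is no separate support. PAL1 (OS02G0626100) had 19.8, 18.3 and 72.9 CPM in C-14 and 345, 201 and 102 CPM in WT (log2 fold change -2.55, edgeR adjusted p = 0.00854, SE 0.50). The PAL gene OS02G0627100, also in the defence list, had 6.69, 24.2 and 25.6 CPM in C-14 and 189, 75.5 and 42.0 CPM in WT. Its log2 fold change was -2.45 (edgeR adjusted p = 0.0233, SE 0.57). PAL2 (OS02G0626400) and PAL7 (OS05G0427400) both fell by 1.92, whereas PAL6 (OS04G0518400) had a log2 fold change of 0.86 that was not called (adjusted p = 0.248). In WT the PAL1, PAL2, PAL7 and OS02G0627100 levels were highest in replicate 1 and lowest in replicate 3. Without WT replicate 1 none of the 4 was called, with edgeR adjusted p from 0.0574 to 0.138, and none was called without C-14 replicate 1. CAD2 (OS02G0187800), a cinnamyl alcohol dehydrogenase of lignin synthesis, had 13.5, 7.34 and 32.5 CPM in C-14 and 92.3, 64.3 and 26.8 CPM in WT, so its libraries overlapped (log2 fold change -1.78, edgeR adjusted p = 0.0424). The call of CAD2 was lost under 12 alternatives, among them WT replicate 1 left out.

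Other defence genes did not pass the test. The median log2 fold change was -0.47 over 13 defence genes, 1 of them called, and -1.06 over 9 tested phytoalexin genes, none called. Single phytoalexin genes ran from -2.09 to 0.90. Their summed level was not lower in C-14, at 54.0, 55.5 and 37.4 CPM beside 45.5, 31.9 and 41.3 CPM in WT. When 1 library was left out, the median of the defence list ran from -0.64 to 0.06.

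**Figure D2:**
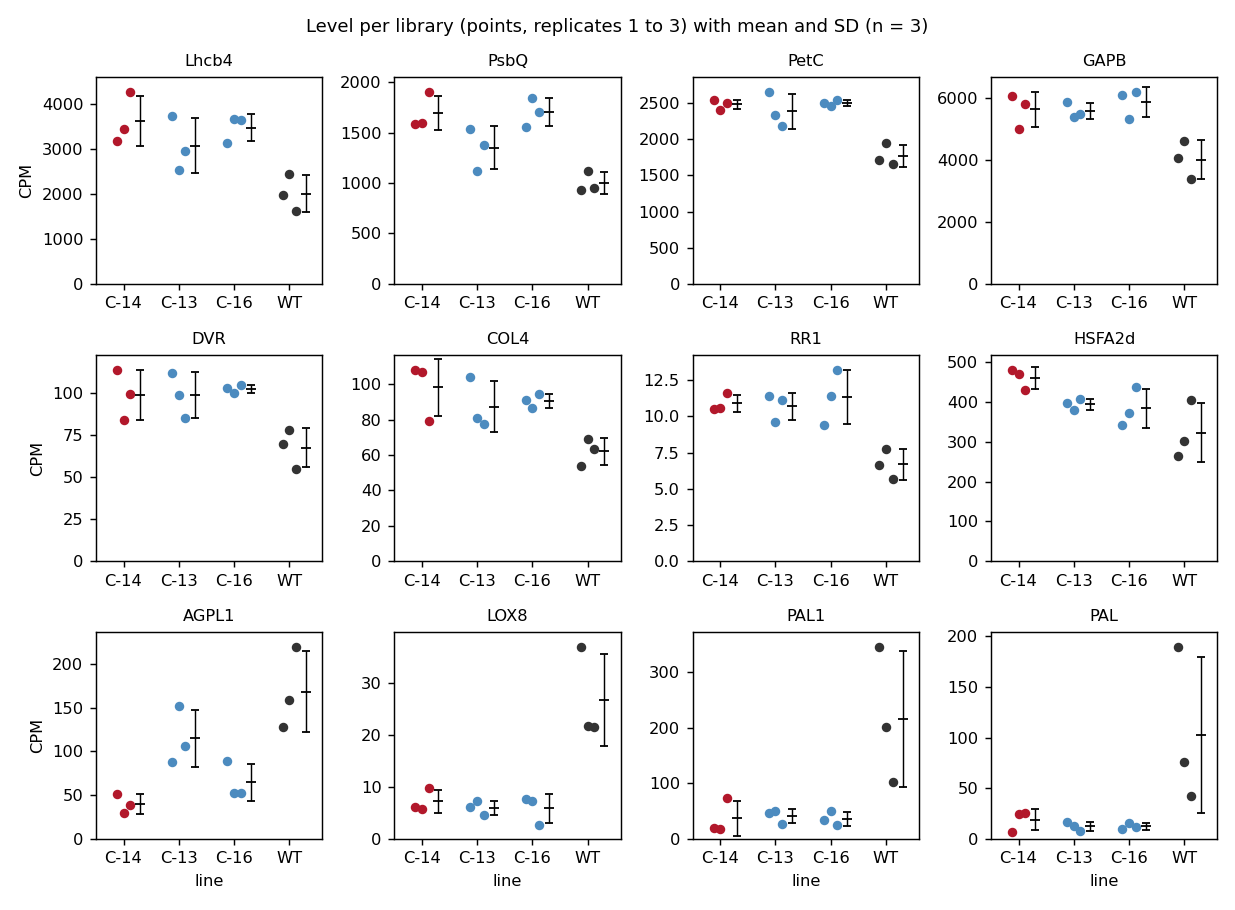
CPM in each library of C-14, C-13, C-16 and WT for 12 genes called in C-14 against WT (points are replicates 1 to 3 from left to right, with the mean and SD beside them, n = 3). Except for AGPL1, and for HSFA2d, where C-14 lies mostly higher, the C-14 libraries lie among or near those of C-13 and C-16. In all 12 panels the C-14 libraries lie apart from the WT libraries, which the choice of called genes without overlap largely fixed.

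Of the called genes outside the lists, the files give no names. OS02G0172850 averaged 15.1 ± 2.3 CPM in C-14 (SD, n = 3), with 12.5 CPM in the lowest library, and had no count in any WT library, so that it was at least 257-fold higher, taking 3 counts over the WT group as the floor. OS07G0129300 had 0.418, 0.13 and 0.251 CPM in C-14 and 21.2, 5.97 and 0.697 CPM in WT (log2 fold change -5.09, edgeR adjusted p = 0.00809, SE 1.00). OS10G0538200 had 0.0598, 0.0649 and 0.188 CPM in C-14 and 6.66, 0.626 and 1.18 CPM in WT (log2 fold change -4.69). Neither decrease was called without WT replicate 1, the library in which both were highest (edgeR adjusted p of 0.0657 and 0.115).

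The direct comparison with C-13 and C-16 has no WT library in its contrast. It called 55 of 21044 genes, or 0.261%, of which 42 were higher in C-14 (0.2%) and 13 lower (0.0618%). At an unadjusted p under 0.05, 1479 genes passed (7.03%), and DESeq2 called 101 (0.48%). None of the 262 list members was called by edgeR, beside 26 at an unadjusted p under 0.05 and 2 called by DESeq2. The 56 photosynthesis genes had a median log2 fold change of -0.01, and their summed level was 194223, 190746 and 207797 CPM in C-14, against 213052, 177839 and 192541 CPM in C-13 and 199040, 208461 and 215951 CPM in C-16. For single genes, the unadjusted 95% interval of the log2 fold change against C-13 and C-16 was -0.17 to 0.47 for Lhcb4, -0.14 to 0.46 for PsbQ, -0.19 to 0.23 for PetC and -0.26 to 0.24 for RR1. For PAL1 the interval, -0.93 to 0.84, was wide. Of the list members called against WT, Lhcb1.2, HSFA2d, PHO2 and AGPL1 had intervals that did not include 0, although none was called here. Lhcb1.2 had a log2 fold change of 0.90 (interval 0.13 to 1.67, edgeR adjusted p = 0.594), HSFA2d an interval of 0.01 to 0.48 and PHO2 an interval of -0.45 to -0.01.

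AGPL1 was the list gene with the clearest difference among those that DESeq2 called. It had 51.4, 29.5 and 38.4 CPM in C-14, against 88.3, 152 and 106 CPM in C-13 and 89.3, 51.9 and 52.6 CPM in C-16. The highest C-14 library lay just below the lowest C-16 library and well below C-13. The log2 fold change was -1.12 (95% interval -1.73 to -0.51), with an edgeR adjusted p of 0.213 and a DESeq2 adjusted p of 0.0178. The other gene that DESeq2 called was GLO4, a glycolate oxidase of photorespiration, with a log2 fold change of -0.21 in C-14. Defence genes had a median log2 fold change of 0.34 against C-13 and C-16, where it was -0.47 against WT, and neither comparison called more than 1 of 13.

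Both tests called 32 genes in the same direction, or 0.152% of those tested, of which 28 were higher and 4 lower in C-14. Both tests use the same 3 C-14 libraries, so an odd library would enter both. The second test takes the mean of C-13 and C-16, so that a gene can pass it while C-14 and 1 of these lines lie close together. In a count added after the data were seen, 19 of the 32 were also called against C-13 and against C-16 singly (0.0903% of genes tested), 15 higher and 4 lower. Another 10 were called singly against C-13 but not C-16, 1 against C-16 but not C-13, and 2 against neither. No list member was among them, and the files name none of them. They were mostly low in abundance, with a median of 2.39 CPM in C-14 and a highest level of 64.1 CPM. A filter of at least 5 CPM over all libraries left 3 of them.

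**Figure D3:**
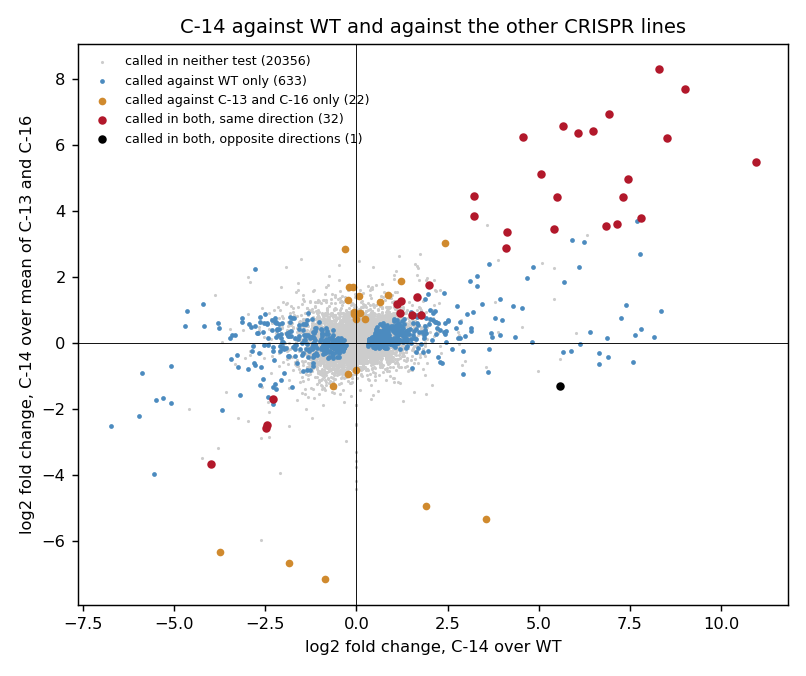
Log2 fold change of C-14 over WT (horizontal) against C-14 over the mean of C-13 and C-16 (vertical) for 21044 genes. The 32 genes called in both tests with the same direction are red, 28 at the upper right and 4 at the lower left. Both axes hold the C-14 libraries, so a slope among the points is built in.

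The 28 genes that rose were mostly near 0 in WT. WT was under 0.5 CPM for 20 of them, and 7 had no WT count at all. In C-14 those 20 genes averaged 0.92 to 19.9 CPM per gene, and their fitted log2 fold changes ran from 3.23 to 10.96. Of the 20, 11 were also under 0.5 CPM in C-13 and C-16, and 10 were under 0.5 CPM in all 6 other lines. Another 8 of the 20 were low in WT and C-13 but reached 0.5 CPM in C-16, and the remaining 1 reached it in C-13 and not in C-16. Of these 8, C-14 was not called against C-16 alone for 6, and for 4 the log2 fold change between C-14 and C-16 was under 0.5 in size. For 2 of the 28, the C-16 mean was at or above that of C-14. The other 8 genes had at least 0.5 CPM in WT, with log2 fold changes from 1.12 to 5.06. The count filter keeps a gene with enough counts in the libraries of a single line. Genes near 0 in the other lines could therefore enter through the C-14 libraries alone. Their low levels elsewhere are partly set by this filter and by the choice of genes.

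EPlOSAG00000049594 had counts almost only in C-14, and it passed the filter through the C-14 libraries. Its levels were 3.41, 4.61 and 3.76 CPM in C-14, against 0.121, 0 and 0 CPM in C-13, and no count in any C-16, WT or OE library. C-14 was at least 67.0-fold higher than WT, and the log2 fold change against C-13 and C-16 was 7.72 (edgeR adjusted p = 0.00037). EPlOSAG00000051372 had 1.37, 3.12 and 2.63 CPM in C-14 and no count in C-13, C-16 or WT. It was at least 40.5-fold higher in C-14 than in WT and at least 78.1-fold higher than in C-13 and C-16, with edgeR adjusted p of 0.00442 and 0.00179. DESeq2 did not call it, with adjusted p of 0.264 against WT and 0.606 against C-13 and C-16. OS02G0172850, without a count in WT, had 0, 0 and 0.293 CPM in C-13 and 1.68, 1.26 and 0.209 CPM in C-16, below the 12.5 CPM or more of every C-14 library. Identifiers beginning with EPlOSAG, which the table does not describe, made up 1.97% of genes tested and 6 of the 32.

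The OE lines also held transcripts of many of these genes. Of the 28 that rose, 17 had at least 0.5 CPM in an OE line. Against single OE lines, the difference was called in the same direction for 22 of the 32 genes with OE-2, for 28 with OE-3 and for 24 with OE-4. The 32 were chosen through the same C-14 libraries, which favours such calls. The share of all genes called against each OE line is not given here. C-14 was called against each of the 6 other lines, in the same direction, for 14 genes (0.0665% of genes tested), 13 higher and 1 lower. The C-14 libraries overlapped none of the 18 other libraries for 20 of the 32 genes. The choice of the 32 favours this, since the WT, C-13 and C-16 libraries are among the 18. The share over all genes tested is not given here.

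**Figure D4:**
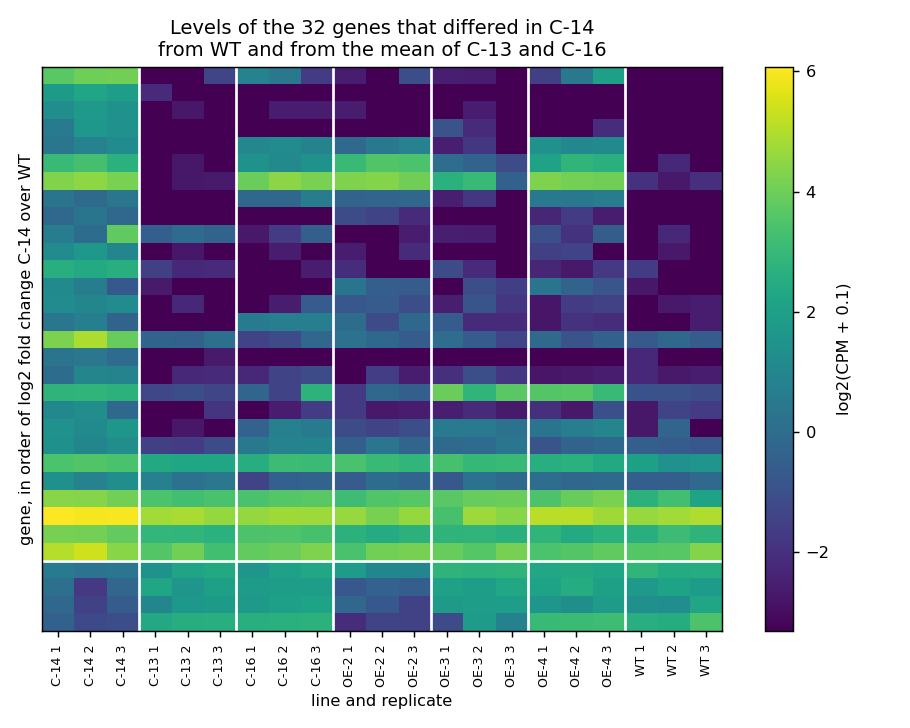
Level of the 32 genes in each of 21 libraries as log2(CPM + 0.1), with genes in order of their log2 fold change in C-14 over WT and a white line between the 28 that rose and the 4 that fell. The 3 C-14 columns at the left are bright for the upper genes, while WT columns at the right are dark, and several rows are also bright in C-16 or in OE lines.

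The 4 genes that fell in C-14 included 3 with neighbouring identifiers on chromosome 11. Rice locus identifiers carry the chromosome and a number that follows the order along it. OS11G0308432 had 0.657, 0.325 and 0.376 CPM in C-14, against 4.96, 5.74 and 5.98 CPM in C-13, 5.83, 6.17 and 6.55 CPM in C-16 and 5.78, 5.57 and 10.8 CPM in WT. The log2 fold change was -3.98 against WT (edgeR adjusted p = 5.28e-05, SE 0.48) and -3.66 against C-13 and C-16 (edgeR adjusted p = 0.000234). OS11G0308266 had 0.777, 0.26 and 0.564 CPM in C-14 and 2.5, 2.33 and 4.46 CPM in WT, with log2 fold changes of -2.49 against WT and -2.58 against C-13 and C-16. The third gene of the run averaged 0.654 CPM in C-14 and 3.68 CPM in WT (log2 fold change -2.46).

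OE-2 was low for the same 3 identifiers, at 0.504, 0.223 and 0.593 CPM in the order of the run, so low levels there were not confined to C-14. OE-3 averaged 1.84 CPM for OS11G0308432, the middle gene, and 3.58 and 4.19 CPM for the outer ones. None of the 16 tested identifiers that flank the run was called in C-14 against WT, and their log2 fold changes lay between -0.44 and 0.35. A run of 2 neighbouring identifiers on chromosome 5 went the other way. The first had 1.14, 1.23 and 0.878 CPM in C-14 and 0.104, 0 and 0 CPM in WT, with no count in C-16 or OE-2. The second had 18.5, 30.3 and 14.8 CPM in C-14 and 0.52, 0.796 and 0.558 CPM in WT, and its mean was 0.466 to 0.793 CPM in the CRISPR and OE lines other than C-14. Its log2 fold change was 5.06 against WT and 5.13 against C-13 and C-16. The 16 tested flanking identifiers of this run had log2 fold changes from -0.57 to 0.66 against WT, and none was called. The 32 genes called in both tests numbered 5 on chromosome 5 (1683 tested), 4 on chromosome 1 (2884) and 4 on chromosome 11 (1148). They numbered 0 on chromosomes 9 (1115 tested) and 10 (1047), beside 0.152% of all genes tested. The 6 EPlOSAG identifiers among the 32 carry no chromosome and are not placed.

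**Figure D5:**
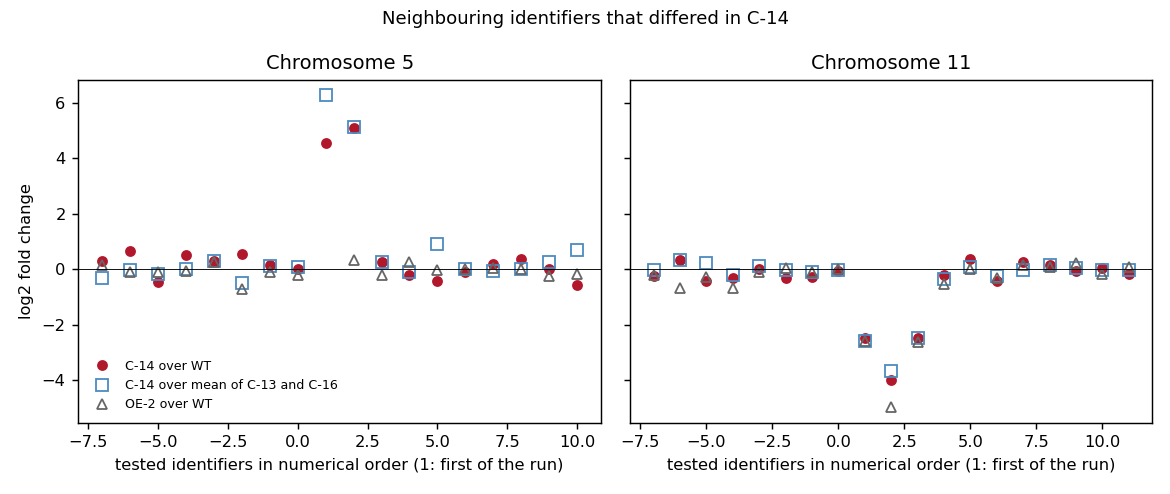
Log2 fold change of C-14 over WT (red), C-14 over the mean of C-13 and C-16 (blue squares) and OE-2 over WT (grey triangles) for the 2 runs and 8 tested identifiers on each side, in numerical order. The 2 genes on chromosome 5 stand above 4 in C-14 and the 3 on chromosome 11 below -2 in both C-14 and OE-2, while the flanking genes lie near 0; OE-2 is not drawn for the first gene of the chromosome 5 run, where it had no count.

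A further 22 genes were called in C-14 against C-13 and C-16 but not against WT, 14 higher and 8 lower in C-14. Their median absolute log2 fold change in C-14 against WT was 0.28. For 21 of the 22, C-13 and C-16 both lay on the same side of WT, away from C-14. That count takes signs only, and the choice of the 22 favours it. C-13 was called against WT for 14, C-16 for 13, both for 9 and neither for 4. Some of the 21 differ mainly in a single line, such as OS03G0363500 with means of 109 CPM in C-14, 106 CPM in C-13 and 30.0 CPM in C-16. The largest difference among the 22 was in OS05G0103800, chosen after its values were seen. It had 0.0598, 0.195 and 0.0627 CPM in C-14, against 15.7, 15.5 and 13 CPM in C-13 and 19.3, 17 and 15.8 CPM in C-16. WT had 0.312, 0.114 and 0.139 CPM, near the level of C-14. The log2 fold change was -7.17 against C-13 and C-16 (edgeR adjusted p = 9.99e-11) and -0.86 against WT (adjusted p = 0.513). A single gene, OS06G0318533, was called in both tests with opposite directions, higher than WT by a log2 fold change of 5.59 and lower than C-13 and C-16 by -1.30.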

How the data were processed

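RNA-seq counts of rice leaf were analysed for 21 libraries of 7 lines. The authors deposited a table of raw counts per gene identifier, whole numbers with no normalization. Per the submitters' processing notes, the tools included Trim Galore, FastQC, STAR 2.5.3a and DESeq2, and the build was IRGSP-1.0. The read counter, with its handling of strand and of multiply mapped reads, is not given in the sources used here, which leaves near-identical, overlapping or antisense genes uncertain. No count stood in any library for 56267 identifiers, and library totals lay between 13788243 and 19032786. Replicate pairs varied by 6.01 to 31 times Poisson noise, and each library was counted as a sample.

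The deposited counts entered a quasi-likelihood fit in edgeR 4.0.16 (R 4.3.3), tested on simulated data before use. Genes were kept by filterByExpr with line as group, scaling was by TMM, and 1 fit of the 7 lines left 14 residual degrees of freedom. The contrasts were C-14 against WT, and C-14 against the equal-weight mean of C-13 and C-16. "Called", "rose" and "fell" mean a Benjamini-Hochberg adjusted p under 0.05 over all 21044 genes. SE is the size of the log2 fold change over the square root of F, and intervals are 95%. CPM values use TMM-scaled library totals. A fold against a group with no count takes 3 counts over the group as floor and covers counting error only.

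The 30 gene lists held 299 loci, 262 of them tested. Members and lists were chosen with earlier results of these data known. Symbols were paired with loci from general knowledge and not checked, since the reference table matched 1 identifier of the count table. Named genes were NRP1, then for C-14 against WT up to 15 called genes each way with non-overlapping libraries and at least 2 CPM in either group, up to 10 each way among those called in both contrasts in the same direction, and up to 4 of each list by smallest p. Ranking took in list members plus no more than 2 unnamed identifiers in each direction. CAD2, the PAL list, GLO4 and the last genes described were chosen after their values were seen. Alternatives were DESeq2 1.42.0 (size factors, Wald test), no filter, at least 5 CPM on average, the replicate block, the compared libraries alone, a minimum absolute log2 fold change of 1, and each library left out. C-14 against each other line singly was added after the data were seen.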

Additional observations from a re-analysis of the deposited data

Results flagged for a closer look

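The direct comparison of C-14 with C-13 and C-16 flagged results where CRISPR lines edited at the same gene differed from each other in the same contrast. It called 55 genes. Of the named genes, EPlOSAG00000049594 was higher in C-14 with a log2 fold change of 7.72 (edgeR adjusted p = 0.00037), with 2 counts in C-13 and none in C-16. EPlOSAG00000051372 was higher in C-14 with a fitted log2 fold change of 8.30 (edgeR adjusted p = 0.00179, DESeq2 adjusted p = 0.606). Both identifiers passed the count filter through the C-14 libraries, so their direction was largely set by that filter. The size of both fitted changes is uncertain, since C-13 and C-16 held almost no counts. OS11G0308432 was lower in C-14 with a log2 fold change of -3.66 (edgeR adjusted p = 0.000234). OS11G0308266 was lower in C-14 with a log2 fold change of -2.58 (edgeR adjusted p = 0.000449). Groups of 3 libraries are too small for a test of single outlying libraries.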

How the results depend on the processing

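For C-14 against WT, 666 calls became 1038 with no filter, 409 with a mean of at least 5 CPM, 1229 with the DESeq2 Wald test, 137 with the compared libraries alone and 369 with an absolute log2 fold change of at least 1. With 1 library left out they ran from 211 to 1024. For C-14 against C-13 and C-16, 55 calls became 114 with no filter, 5 with at least 5 CPM and 101 with DESeq2, and 38 to 62 with 1 library left out. The 32 genes called in both tests in the same direction became 56 with no filter, which held all 32, 3 with at least 5 CPM, 49 with DESeq2, of which 30 were shared, and 26 to 38 with 1 library left out. The added comparisons left 19 called also against C-13 and C-16 singly, and 14 called against each of the 6 other lines. The 19 calls among list members became 38 with no filter, 38 with DESeq2, 2 with the compared libraries alone and 5 with an absolute log2 fold change of at least 1. With 1 library left out they ran from 3 (without WT replicate 1) to 32 (without OE-3 replicate 1), with 5 without C-14 replicate 1. The log2 fold change of NRP1 in C-14 against WT ran from -0.33 to -0.01 with 1 library left out. PAL9, not called, turned positive without WT replicate 3 (0.10) and without C-14 replicate 2 (0.0013), and ran from -0.43 to 0.10 with 1 library left out. DESeq2 size factors changed none of these counts by over 1.5 times. The causes were not tested, apart from the stricter filters, which test fewer genes. AGPL1 and LOX8 kept their calls against WT under every alternative run.

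Whether replicate numbers pair the samples cannot be decided from 3 libraries per line, whose deviations from their mean are tied to each other. Deviations of same-numbered C-14 and WT libraries correlated at 0.0575, -0.332 and -0.314 over 16305 genes. With C-13 the values were 0.0844, 0.128 and -0.0648, and with C-16 they were 0.107, 0.240 and -0.334. With the replicate block, 605 genes were called against WT, 61 against C-13 and C-16, 37 in both tests in the same direction, 17 list members were called, and the log2 fold change of NRP1 was -0.16. Lhcb1.2 (edgeR adjusted p = 0.0638), RR4 (0.0543), Lhca1 (0.0551) and CAD2 (0.0712) were not called under the block. Few counts per library stand behind genes below 5 CPM, and a missing call does not show that C-14 and WT are alike.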
